A study of Homo sapiens with 9 samples.

Results

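The resting transcriptome of A549 cells was read from the libraries of cells that received scrambled siRNA, a control duplex with no intended target (siCtrl). A549 is an established line of human lung adenocarcinoma. The siCtrl samples were 3 of the 9 in the series, taken by their titles, and the other 6, in which Cyclin K was targeted with siRNA, entered no value here. Cells were transfected for 48 h before total RNA was extracted, and the design names the replicates of a group as independent samples without saying what was kept apart, so the spread given here may be partly technical. Every row with a reference gene was used, 31127 of the 56252 rows in each library, and summing the rows of 1 gene gave 31080 entries. Of these, 29736 were single genes and 1344 were joined rows, in which StringTie had assigned 1 value to several genes, which need not overlap. A joined value was taken as the value of the whole row, and each gene whose value is printed from one is named as such. Counts of detected entries include joined rows.

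Lung adenocarcinoma arises from the epithelium of the distal lung, where type II alveolar cells make surfactant and renew the flat type I cells. A549 cells have long served as a stand-in for type II cells and for lung cancer, and they are known for loss of the CDKN2A cell cycle inhibitor locus and for a defect in KEAP1, the adaptor that normally marks the oxidative stress factor NRF2 for destruction. NRF2 drives genes for thioredoxin, glutathione, NADPH and iron handling. The lists used below follow these known features, the other cell types a lung sample could hold, and gene families that a lung cell does not use.

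Levels were in FPKM, fragments per kilobase of exon scaled to the mapped total, which correct for gene length and so allow genes to be set beside each other. From the steps between low values, the libraries held about 33768000, 31847900 and 32437400 counted units, called reads throughout. The values do not show whether such a unit is a read or a read pair. An entry was taken as detected at a mean of 1 FPKM or more over the 3 libraries. By that limit 10957 of 31080 entries (35.3%) were detected, 3593 reached 10 FPKM, 259 reached 100 FPKM and 13 reached 1000 FPKM, whereas 4607 (14.8%) were at 0 in all 3 libraries. The limit was crossed between libraries by 966 entries, and 10532 lay at or above it in each one. The median over all entries was 0.237 FPKM, and that of the detected ones 5.82 FPKM.

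Gene classes separated widely. Of 14278 protein-coding genes with a row of their own, 8968 (62.8%) were detected, with a median of 2.72 FPKM over the class. The annotation holds 19951 protein-coding genes, of which 16241 were in the rows, single or joined, so shares cover measured genes only. The share was 6.40% of 7233 long noncoding genes, 8.91% of 5848 pseudogenes and 4.48% of 1719 small RNA genes. Genes for olfactory receptors, which sense odours in the nose, gave a floor, although 313 of 381 had no row. Of 67 entries 1 was detected, OR2AE1 on a row joined with TRIM4 (4.94 FPKM). The 90th percentile of the measured olfactory receptor genes was 0.0565 FPKM. As many as 80.3% of protein-coding genes with a row of their own lay above that percentile. At the other end, none of 240 measured genes for ribosomes, the proteasome, RNA polymerase II, Mediator and tRNA charging, a set chosen after the values were seen, lay below 1 FPKM, and the lowest was MED22 at 1.75 FPKM.

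**Figure D1:**
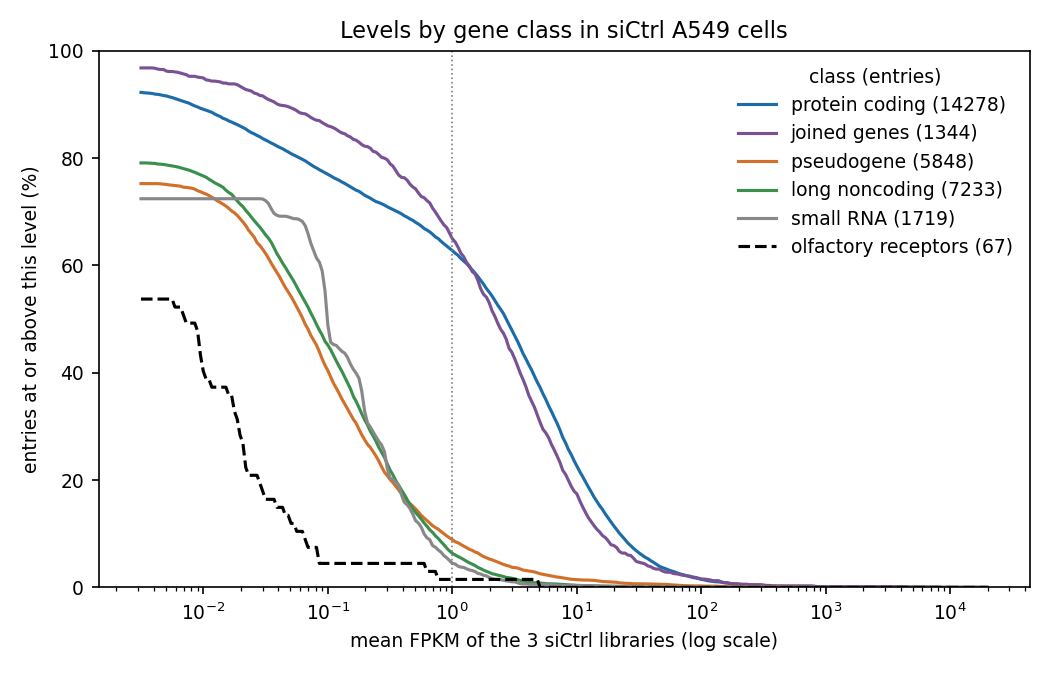
Share of entries (y axis, %) whose mean FPKM over the 3 siCtrl libraries is at or above the level on the x axis (log scale), for 5 gene classes and the olfactory receptors (dashed), with the number of entries in brackets; the dotted line is 1 FPKM. At 1 FPKM the protein-coding curve stands at 62.8%, and the long noncoding, pseudogene and small RNA curves stand below 10%.

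Few genes held much of the signal. The 10 highest entries of a library took 30.0% ± 0.422 of its summed FPKM (SD, n = 3), the 100 highest 44.2% ± 0.415 and the 1000 highest 68.7% ± 0.290. The mitochondrial genome alone gave 27.2% ± 0.377, from 9 rows. Its large ribosomal RNA MT-RNR2 led at 18419, 18371 and 17815 FPKM, followed by MT-CO1, a cytochrome c oxidase subunit, at 15023, 15064 and 14583 FPKM. MT-RNR2 exceeded MT-CO1 in every library. Next came a joined row of MT-CO3, MT-ATP8 and MT-ATP6 with a mean of 7947 FPKM, then MT-CO2 at 7790 FPKM and MT-ND1 at 6301 FPKM.

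The highest nuclear gene was FTL, the light chain of ferritin, which stores iron. It measured 5963, 5912 and 5818 FPKM and ranked 6 of 31080, above GAPDH, a glycolytic enzyme, at 2553, 2605 and 2553 FPKM. No value of the pair overlapped. CXCL5, a chemokine that draws neutrophils, ranked 12 at 1387, 1266 and 1315 FPKM, and PRDX1, a peroxide-reducing enzyme, ranked 13 with a mean of 1063 FPKM. The remaining nuclear entries among the 20 highest were the translation factor EEF1A1 (891 FPKM), RPS2 on a row joined with small nucleolar RNAs (809 FPKM), the chaperone HSP90AB1 (729 FPKM), the glycolytic enzyme ENO1 (712 FPKM), the ferritin heavy chain FTH1 (712 FPKM), the joined row of MTATP6P1, MTATP8P1 and MTCO3P12 (854 FPKM) and the pseudogene MTND2P28 (683 FPKM). The last 2 are nuclear copies of mitochondrial genes, so reads can be split between copy and source and their values are uncertain. The same holds for RPS28P7 (629 FPKM) and RPL9P9 (515 FPKM), the next highest pseudogenes. Among long noncoding genes, AC011603.2 (129 FPKM), NORAD (75.1 FPKM) and MIF-AS1 (50.6 FPKM) were highest. It is not stated here whether counting used strand, so the antisense gene MIF-AS1 cannot be told apart from its partner. The same limit holds for any noncoding gene that overlaps a gene on the other strand. Such overlap was not analysed here for AC011603.2.

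The promoters of highly expressed genes were compared in sequence, using the 250 bases before the start site in the RefSeq table for GRCh38.p14. Of 14273 nuclear protein-coding genes, 11362 (79.6%) matched, just short of the 80% needed, and coverage was 72.1% of genes at 0 and 74.9% of genes above 0 and below 1 FPKM. The comparison of detected with silent genes is therefore void. Class values are given only for detected genes, where 82.0% to 84.5% of each level class matched. Shares over all promoters include genes below 1 FPKM. They are printed as a background and cannot show a difference between detected and silent genes. TATAAA, the letters of the TATA box, was counted where it began 40 to 20 bases before the start on the gene's own strand. That held for 1.21% of 4700 promoters at 1 to below 10 FPKM and for 1.66% of 2533 at 10 to below 100 FPKM. At 100 FPKM or more it held for 8.33% of 180 (15 promoters, exact binomial 95% interval 4.74% to 13.4%). Over all 11362 promoters, undetected genes included, the share was 2.68%. GGGCGG, the letters bound by Sp1, stood on either strand in 69.3%, 71.8% and 73.3% of the same 3 classes (62.3% over all promoters), and CCAAT in 34.7%, 37.5% and 43.3% (34.8% over all). TGACNNNGC stood on either strand in 11.8% and 13.7% of the classes below 100 FPKM and in 15% of the highest (11.9% over all). The median GC content was 65.6%, 65.2% and 64.4%. A match describes letters only and is no sign that a factor binds.

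To show these patterns, the promoter of the highest nuclear gene and of the 2 highest genes with TATAAA in place are printed 5′ to 3′ on the gene's strand. Capitals mark TATAAA of the TATA box, the Sp1 letters GGGCGG, the box named by its letters CCAAT and the core of the antioxidant response element, TGACNNNGC, either as spelt or, for a match on the opposite strand, as the reverse complement. FTL lies at chr19:48965059-48965308 (plus strand), TXN at chr9:110256508-110256757 (minus strand) and SLC25A5 at chrX:119468194-119468443 (plus strand).
FTL: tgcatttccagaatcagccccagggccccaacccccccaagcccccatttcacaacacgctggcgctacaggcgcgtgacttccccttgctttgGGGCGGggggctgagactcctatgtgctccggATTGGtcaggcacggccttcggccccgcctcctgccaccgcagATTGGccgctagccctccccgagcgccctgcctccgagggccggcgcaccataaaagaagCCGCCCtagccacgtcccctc
TXN: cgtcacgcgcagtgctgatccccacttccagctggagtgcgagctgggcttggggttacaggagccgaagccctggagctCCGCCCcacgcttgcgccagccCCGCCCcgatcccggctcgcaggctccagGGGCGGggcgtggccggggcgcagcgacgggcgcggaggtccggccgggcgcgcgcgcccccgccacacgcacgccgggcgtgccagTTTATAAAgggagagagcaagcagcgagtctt
SLC25A5: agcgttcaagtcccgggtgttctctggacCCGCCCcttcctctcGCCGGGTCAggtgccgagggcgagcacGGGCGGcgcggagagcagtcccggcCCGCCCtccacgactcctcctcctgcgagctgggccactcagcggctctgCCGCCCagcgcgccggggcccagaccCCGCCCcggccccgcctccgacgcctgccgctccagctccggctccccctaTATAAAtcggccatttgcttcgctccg

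FTL held no TATAAA in this window. In TXN, which encodes thioredoxin and measured 646, 631 and 622 FPKM, the motif began 30 bases before the start, where TATAAA on the gene's strand overlaps the same letters on the other strand. In SLC25A5, which carries ADP and ATP across the inner mitochondrial membrane and measured 382, 360 and 381 FPKM, it began 27 bases before the start. The other 13 such genes at 100 FPKM or more included PPIA (333 FPKM), EEF2 (282 FPKM), ANXA2 (198 FPKM), the metallothionein MT2A (153 FPKM) and the Wnt inhibitor DKK1 (115 FPKM).

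Lineage markers came next, and the share of each list can be set beside the 62.8% of all protein-coding genes detected. Among genes of simple epithelium, 11 of 18 measured entries (61.1%) were detected, with a median of 2.29 FPKM beside 2.72 FPKM for all protein-coding genes. KRT18 and KRT8, the paired keratins of simple epithelia, measured 85.0, 80.8 and 83.8 FPKM and 65.4, 49.7 and 50.7 FPKM. The tight junction scaffold TJP1 (38.9 FPKM) and the claudin CLDN1 (23.9 FPKM) followed, and CLDN7 was read only from a joined row (21.6 FPKM). E-cadherin (CDH1), the adhesion molecule of epithelia, was low at 1.56, 1.495 and 1.86 FPKM. Other defining markers lay near the floor. KRT19 measured 0, 0.108 and 0.0660 FPKM, which is 0, 8 and 5 reads, and EPCAM 0.0353, 0.0873 and 0 FPKM, which is 3, 7 and 0 reads. The epithelial splicing factors ESRP1 and ESRP2 (joined row) had means of 0.00632 and 0.0322 FPKM. Of the markers of this list, KRT8, KRT18 and some junction genes were thus detected, whereas KRT19, EPCAM, the desmosome gene DSP (0.499 FPKM) and the claudins CLDN3 (0.463 FPKM) and CLDN4 (0.351 FPKM) were not. Over the whole claudin family 6 of 19 entries were detected, among them CLDN7, CLDN15 and CLDN12 on rows joined with other genes.

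Genes of mesenchymal cells were detected in 10 of 16 cases (62.5%), close to the 62.8% of all protein-coding genes. Their median was 1.90 FPKM, beside 2.72 FPKM for all protein-coding genes. Vimentin (VIM), an intermediate filament of mesenchymal and many cultured cells, measured 278, 262 and 272 FPKM and lay above KRT18 in every library. S100A4 (47.8 FPKM), fibronectin FN1 (28.0 FPKM) and N-cadherin CDH2 (17.2 FPKM) were next. N-cadherin exceeded E-cadherin in every library, CDH2 having 17.03 FPKM as its lowest value and CDH1 1.86 FPKM as its highest. The regulators ZEB1 (5.00 FPKM), TWIST2 (4.24 FPKM), TWIST1 (2.36 FPKM), SNAI1 (2.14 FPKM) and ZEB2 (1.65 FPKM) were detected, while the smooth muscle genes ACTA2 (0.475 FPKM) and TAGLN (0.434 FPKM) were not.

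Markers of type II alveolar cells were mostly silent, with 5 of 15 measured entries detected and a median of 0.0808 FPKM. The surfactant genes SFTPA2 and SFTPD and the phosphate carrier SLC34A2 were at 0 in all 3 libraries, where a count of 0 allows 0.0187 to 0.0713 FPKM by gene length (3 reads in the shallowest library). SFTPB measured 0.0576, 0.0382 and 0.0450 FPKM, and SFTPC 0, 0.0689 and 0.0774 FPKM, which is 0, 7 and 8 reads. The lung lineage factor NKX2-1 had a mean of 0.0243 FPKM on a joined row. The detected members were the phospholipid enzyme LPCAT1 (24.5 FPKM), the factor CEBPA (9.82 FPKM), the lamellar body transporter ABCA3 (6.21 FPKM), ETV5 on a joined row (4.90 FPKM) and HHIP (1.57 FPKM). By their means, the surfactant genes named here thus lay below 0.0565 FPKM, the 90th percentile of the measured olfactory receptor genes. SFTPB and SFTPC lay above the median of the olfactory receptor entries, 0.00716 FPKM. A lipid enzyme and a transporter of the same cell type, LPCAT1 and ABCA3, lay far above that percentile.

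Of type I alveolar markers 5 of 9 were detected, led by the caveolins CAV1 (66.2 FPKM) and CAV2 (18.1 FPKM), which many cultured cells express. AGER, the defining receptor of type I cells, had a mean of 0.729 FPKM, and PDPN one of 0.0109 FPKM. In the airway list 3 of 14 entries were detected. AGR2, a chaperone of mucus cells, measured 21.2, 19.7 and 21.7 FPKM and the secreted mucin MUC5AC 10.1, 10.95 and 10.1 FPKM, and MUC1 was read from a joined row at 2.80 FPKM. Markers of basal and ciliated cells were low or silent, with TP63 at 0.0920 FPKM, FOXJ1 at 0.0269 FPKM and KRT5 at 0 in all libraries.

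**Figure D2:**
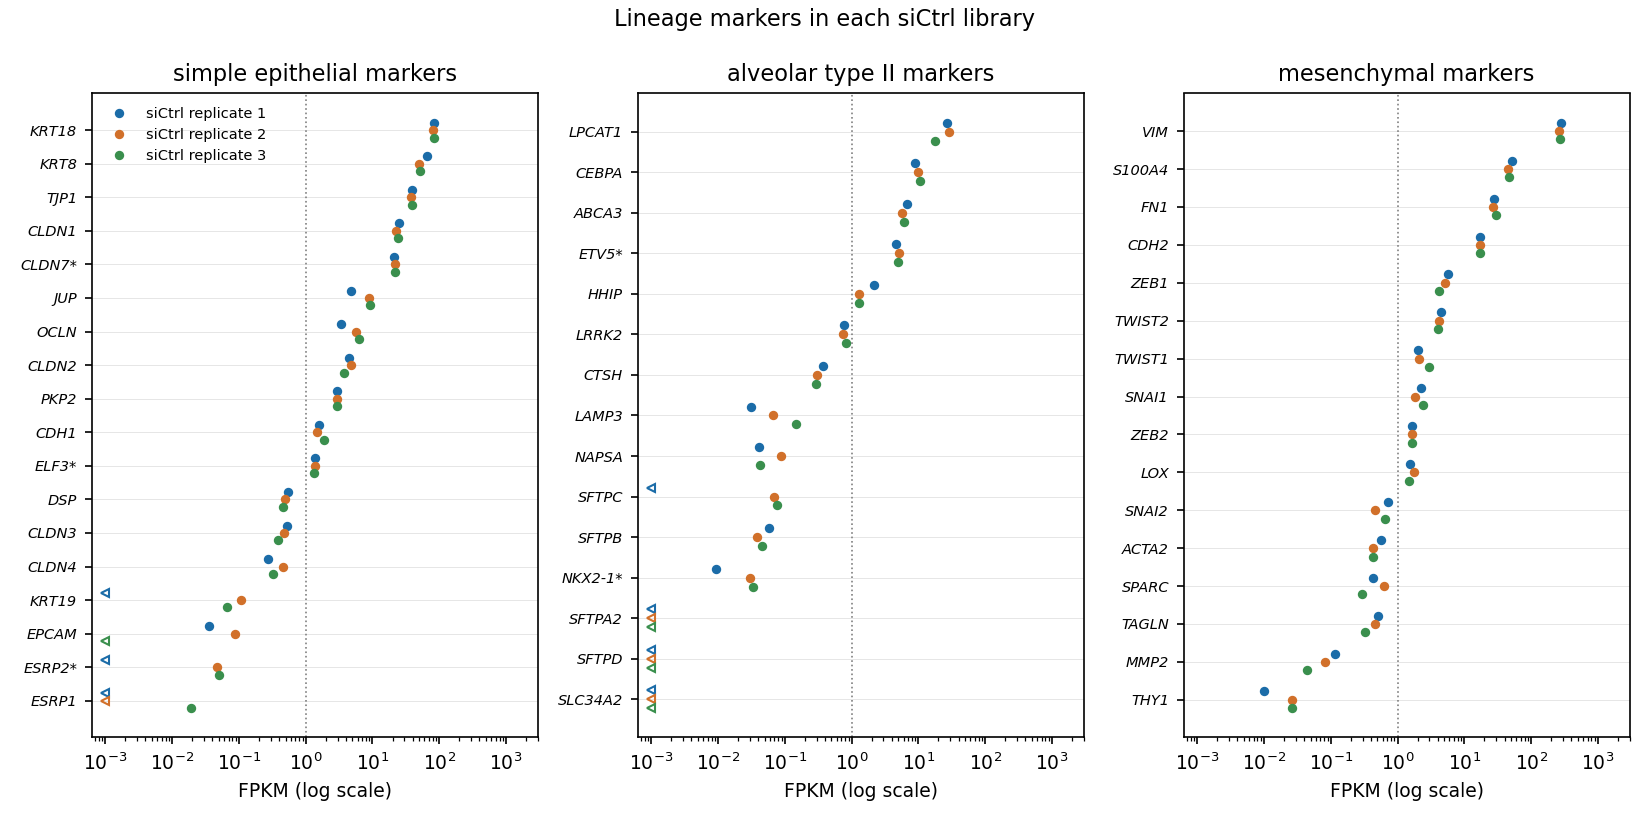
FPKM (x axis, log scale) of each measured marker of simple epithelium, type II alveolar cells and mesenchymal cells in the 3 siCtrl libraries (1 colour each); an open triangle at the left edge stands for a value of 0, an asterisk for a gene on a joined row, and the dotted line for 1 FPKM. The 3 libraries lie close together above 1 FPKM and scatter below 0.1 FPKM, where KRT19, EPCAM and the surfactant genes sit.

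Markers of other cell types that a lung sample could hold were checked as whole lists. Of 11 measured blood cell genes 1 was detected, the lysosomal protein CD68 (30.3 FPKM), and the pan-leukocyte gene PTPRC stood at 0.00646, 0.00685 and 0 FPKM. Of 9 endothelial genes 1 was detected, the junction protein ESAM (21.3 FPKM), with VWF and EMCN at 0 in all libraries and CDH5 at 0.0136 FPKM. Of 10 fibroblast genes 2 were detected, PDGFRA (3.52 FPKM) and COL1A1 (2.03 FPKM), while COL1A2 was at 0 in all libraries and COL3A1 had a mean of 0.00154 FPKM. In the neuroendocrine list 5 of 10 were detected (50%), of which 2 reached 10 FPKM and 1 reached 100 FPKM. The ubiquitin hydrolase UCHL1 was highest at 111, 117 and 115 FPKM, and the adhesion molecule NCAM1, with a mean of 0.0103 FPKM, was among the 5 below 1 FPKM.

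Genes of endoderm and liver were present in part. Among transcription factors 7 of 18 were detected, among them CEBPB (20.5 FPKM) and NR5A2 (5.01 FPKM). FOXA1 (1.53 FPKM) and GATA6 (1.53 FPKM) were low and did not separate from each other, and HNF4A was at 0 in all libraries. Of 25 measured liver secreted proteins 7 were detected, among them complement C5 (11.4 FPKM) and C3 (5.26 FPKM) and the plasma protein AMBP, at 10.3, 10.4 and 10.3 FPKM. APOA1, HP and FGB were at 0 in all libraries. Fewer than a majority of either list was therefore in use, at 38.9% and 28% beside 62.8% of all protein-coding genes.

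The keratin family gave an unusual order. The highest value belonged to a joined row of KRT81 and KRT85, keratins of hair, at 308, 409 and 400 FPKM, and the hair keratin KRT86 followed at 109, 113 and 113 FPKM. Both lay above KRT18 in every library. KRT80 (22.01 FPKM) and KRT10 (9.31 FPKM), a keratin of upper epidermis, were also detected. In all, 7 of 24 measured keratin entries were (29.2%, beside 62.8% of all protein-coding genes). KRT81 and KRT86 are close paralogs, so reads may be divided between them and their separate values are uncertain.

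NRF2 target genes were high as a list. Of 38 measured targets 37 were detected, 35 reached 10 FPKM and 14 reached 100 FPKM, with a median of 57.7 FPKM and a median rank of 510.5, beside 2.72 FPKM for all protein-coding genes. Among the lists only the messengers of the mitochondrial genome and the reference genes of quantitative PCR (74.4 FPKM) had a higher median. After FTL, PRDX1, FTH1 and TXN came PGD, an NADPH-producing enzyme, at 461, 479 and 467 FPKM, and TXNRD1, which reduces thioredoxin, at 442, 443 and 450 FPKM. AKR1B10, an aldo-keto reductase, shared a joined row with AKR1B15 at 321, 327 and 332 FPKM. NQO1, the quinone reductase often used as a marker of NRF2 activity, measured 189, 189 and 192 FPKM. The libraries differed little in these genes, and none of the values of TXNRD1 overlapped with those of NQO1.

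Lower in the same list were the 2 subunits of the enzyme that starts glutathione synthesis, GCLM at 55.3 FPKM and GCLC at 12.9 FPKM (joined row), the cystine carrier SLC7A11 at 55.1 FPKM and the haem oxygenase HMOX1 at 14.3 FPKM. GPX2, a glutathione peroxidase, was the only measured member below 1 FPKM, at 0.553, 0.377 and 0.473 FPKM. KEAP1 itself measured 16.96, 31.5 and 32.7 FPKM, so library 1 lay well below the others, and its mean of 27.1 FPKM became 32.1 FPKM without that library. Aldo-keto reductases as a family were detected in 10 of 15 entries (66.7%, beside 62.8% of all protein-coding genes). There AKR1B1 (203 FPKM), AKR1C2 (81.0 FPKM), AKR1C3 (70.0 FPKM) and AKR1C1 (23.6 FPKM) stood beside AKR1C4 (0.192 FPKM) and AKR1D1 (0.00638 FPKM). The AKR1C genes are near-identical, so their separate values are uncertain. Of the aldehyde dehydrogenases 14 of 18 were detected (77.8%), led by ALDH1A1 at 529, 570 and 550 FPKM. Among them ALDH16A1, ALDH9A1, ALDH1A3 and ALDH4A1 were read only from joined rows, so their own levels are unknown. GSTP1 led the glutathione S-transferases at 225, 225 and 221 FPKM.

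Carbon metabolism was broadly on. Of 25 glycolysis genes 23 were detected, with a median of 34.7 FPKM and 8 at 100 FPKM or more. Lactate dehydrogenase appeared in both forms, LDHB at 495, 499 and 494 FPKM and LDHA at 296, 408 and 411 FPKM. LDHA was lower in library 1 than in the others, whereas LDHB hardly moved, and every LDHB value exceeded every LDHA value. The pyruvate kinase PKM measured 367 FPKM, and the liver and red cell form PKLR was at 0 in all libraries. ALDOA, an aldolase, measured 142 FPKM. HK1 (37.0 FPKM) was higher than HK2 (2.15 FPKM) in every library. The glucose carriers SLC2A1 (34.1 FPKM, joined row) and SLC2A3 (8.51 FPKM) were both detected.

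All 24 measured genes of the tricarboxylic acid cycle were detected, with a median of 24.9 FPKM. ACLY, which turns citrate into acetyl-CoA for lipid synthesis, was highest at 198, 190 and 204 FPKM, and fumarase FH (63.1 FPKM) and MDH2 (54.9 FPKM) followed. In the pentose phosphate pathway 10 of 11 were detected, led by PGD, with TALDO1 at 153 FPKM, TKT at 83.4 FPKM and the transketolase-like TKTL1 at 0 in all libraries. All 21 lipid synthesis genes were detected, with SCD (178 FPKM), HMGCS1 (99.9 FPKM) and FASN (71.7 FPKM) highest.

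Serine, glycine and folate enzymes were more uneven, with 15 of 21 detected and a median of 3.36 FPKM. MTHFD2 (60.2 FPKM), PSAT1 (51.4 FPKM) and thymidylate synthase TYMS (44.7 FPKM) were high, whereas PHGDH, the first enzyme of serine synthesis, measured 3.16, 3.80 and 3.12 FPKM. Glutamine synthetase GLUL measured 0.00984, 0.0209 and 0.00683 FPKM, which is 3, 6 and 2 reads. Among gluconeogenesis and liver carbohydrate genes 7 of 13 were detected, where the glycogen phosphorylases PYGB (91.7 FPKM) and PYGL (42.0 FPKM) led and PCK1 had a mean of 0.00145 FPKM.

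All 28 proliferation genes were detected, with a median of 40.2 FPKM. PCNA, the sliding clamp of replication, was highest at 305, 287 and 298 FPKM and TOP2A, the topoisomerase of dividing cells, second at 193, 199 and 189 FPKM. The division marker MKI67 measured 56.2, 57.1 and 56.6 FPKM. Lowest were BIRC5 (6.16 FPKM) and CCNE2 (4.65 FPKM). AURKA was uneven at 47.8, 50.4 and 70.0 FPKM, with library 3 above the others.

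**Figure D3:**
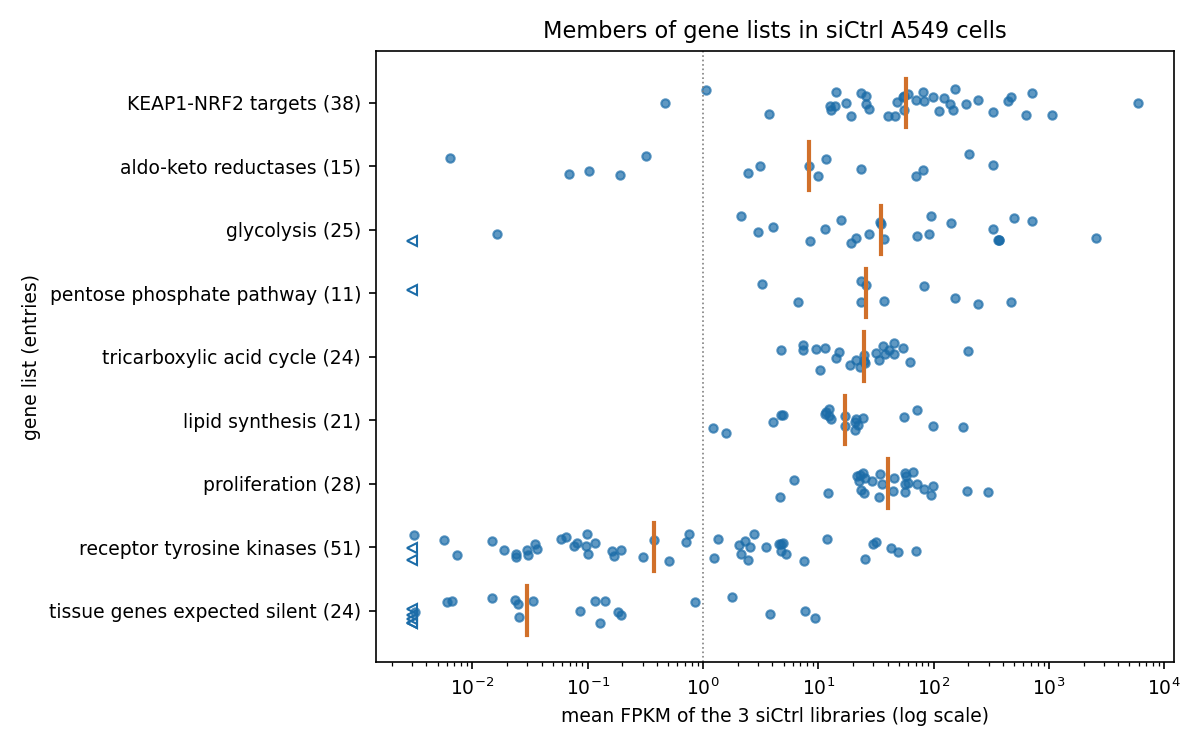
Mean FPKM over the 3 siCtrl libraries (x axis, log scale) of each entry of 9 gene lists, with the number of entries in brackets; orange bars are list medians, open triangles at the left edge are values below 0.003 FPKM, and the dotted line is 1 FPKM. NRF2 targets lie highest, with a median of 57.7 FPKM, and receptor tyrosine kinases and tissue genes reach down to the left edge.

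Oncogenes of lung cancer were detected in 26 of 38 cases (68.4%, beside 62.8% of all protein-coding genes), with a median of 5.37 FPKM. Cyclin D1 (CCND1), which opens the G1 phase, was highest at 73.1, 72.0 and 72.6 FPKM, while CCND3 measured 13.6 FPKM and CCND2 only 0.00718 FPKM. Of the RAS family, NRAS stood at 24.5, 24.4 and 23.8 FPKM and HRAS at 10.1, 11.03 and 12.4 FPKM. NRAS exceeded HRAS in every library. MDM2 (8.57 FPKM) and MDM4 (1.81 FPKM) were detected, TERT sat at the limit with 1.02 FPKM, and RET, ALK and ERBB4 were at 0.0237 FPKM or below.

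MYC, a transcription factor of growth, gave 1.63, 16.7 and 1.76 FPKM, so the mean of 6.71 FPKM described no library. The counts behind these values were 165, 1600 and 171 reads. Library 2 was about 10.3 times library 1, and without it the mean was 1.69 FPKM. No other detected list member differed as much between libraries. Among 361 detected list entries 3 differed over 2-fold (0.831%), and the others were a joined row of INS and IGF2, at 1.24, 7.93 and 2.21 FPKM, and the Notch ligand DLL3, at 1.79, 1.198 and 2.53 FPKM. Without library 2 the mean of the INS and IGF2 row fell from 3.79 to 1.73 FPKM.

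Receptor tyrosine kinases, the surface receptors of growth factors, were detected in 22 of 51 cases (43.1%, beside 62.8% of all protein-coding genes). AXL was highest at 73.4, 65.3 and 70.8 FPKM, followed by EPHA2 (49.3 FPKM), EGFR (42.5 FPKM) and MET (31.8 FPKM), and each lay above the next in every library. ERBB3 was read only from a row joined with PA2G4 (29.9 FPKM), an abundant gene, so its own level is unknown. FGFR1 measured 25.4 FPKM and IGF1R 11.96 FPKM. ERBB2 measured 4.82, 4.53 and 4.44 FPKM and overlapped with EPHB4 (4.73 FPKM). The other 29 entries lay below 1 FPKM.

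Of 33 tumour suppressors 28 were detected (84.8%, beside 62.8% of all protein-coding genes). The cell cycle inhibitors CDKN1B (40.1 FPKM) and CDKN1A (32.4 FPKM) were highest. STK11, a kinase that restrains growth, measured 4.09, 3.97 and 3.73 FPKM. SMARCA4, the motor of a chromatin remodelling complex, was read from a joined row at 1.28 FPKM. The 5 below the limit were CDKN1C (0.825 FPKM), the joined row of MTAP (0.678 FPKM), FHIT (0.0931 FPKM), CDKN2A (0.0118 FPKM) and CDKN2B (0.00243 FPKM).

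CDKN2A, at chr9:21967753-21995301 (GRCh38), was covered by 2, 3 and 0 reads, and CDKN2B, at chr9:22002903-22009363, by 1, 0 and 0 reads. MTAP, which lies beside them, has a value only from a row joined with CDKN2B-AS1 and other genes, at 0.771, 0.603 and 0.659 FPKM. Within 3 Mb on either side of CDKN2A the annotation holds 34 protein-coding genes, of which 19 had a row and 9 were detected. On the lower side of the coordinates, RRAGA (102 FPKM), RPS6 (457 FPKM), PLIN2 (17.1 FPKM), MLLT3 (8.11 FPKM), FOCAD (12.4 FPKM) and KLHL9, at 16.6, 16.6 and 17.2 FPKM, were all detected, and HACD4 had a mean of 0.452 FPKM. On the upper side DMRTA1 measured 2.02, 1.76 and 1.97 FPKM and ELAVL2 0.109 FPKM. The interferon genes with a row, IFNW1, IFNA21, IFNA5, IFNA13 and IFNA1, lay at 0.109 FPKM or below. Detected genes thus stood on both sides of the silent CDKN2A and CDKN2B, and the nearest of them was DMRTA1. RNA levels do not show whether a gene is present in the genome.

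HOX genes, which mark position along the body axis, were detected in 10 of 24 entries, with HOXB8 highest at 10.1, 10.1 and 10.8 FPKM. In the HOXA cluster HOXA7 (4.41 FPKM) led and HOXA11 was at 0. In the HOXC cluster HOXC8 (3.30 FPKM) and HOXC13 (2.57 FPKM) led. None of the 9 HOXD genes with a row was detected, the highest being HOXD8 at 0.552, 0.669 and 0.446 FPKM, and 3 were at 0 in all libraries. HOXB3, HOXB4, HOXB5, HOXB7 and HOXB9 and 5 genes of the other clusters were not analysed here. Nuclear receptors were detected in 22 of 40 entries (55%, beside 62.8% of all protein-coding genes). The glucocorticoid receptor NR3C1 led at 15.004, 12.4 and 13.5 FPKM. NR0B1 followed at 11.8, 13.3 and 12.8 FPKM and did not separate from it. The oestrogen receptors ESR1 and ESR2 (joined rows) were at 0.0677 and 0.0591 FPKM.

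**Figure D4:**
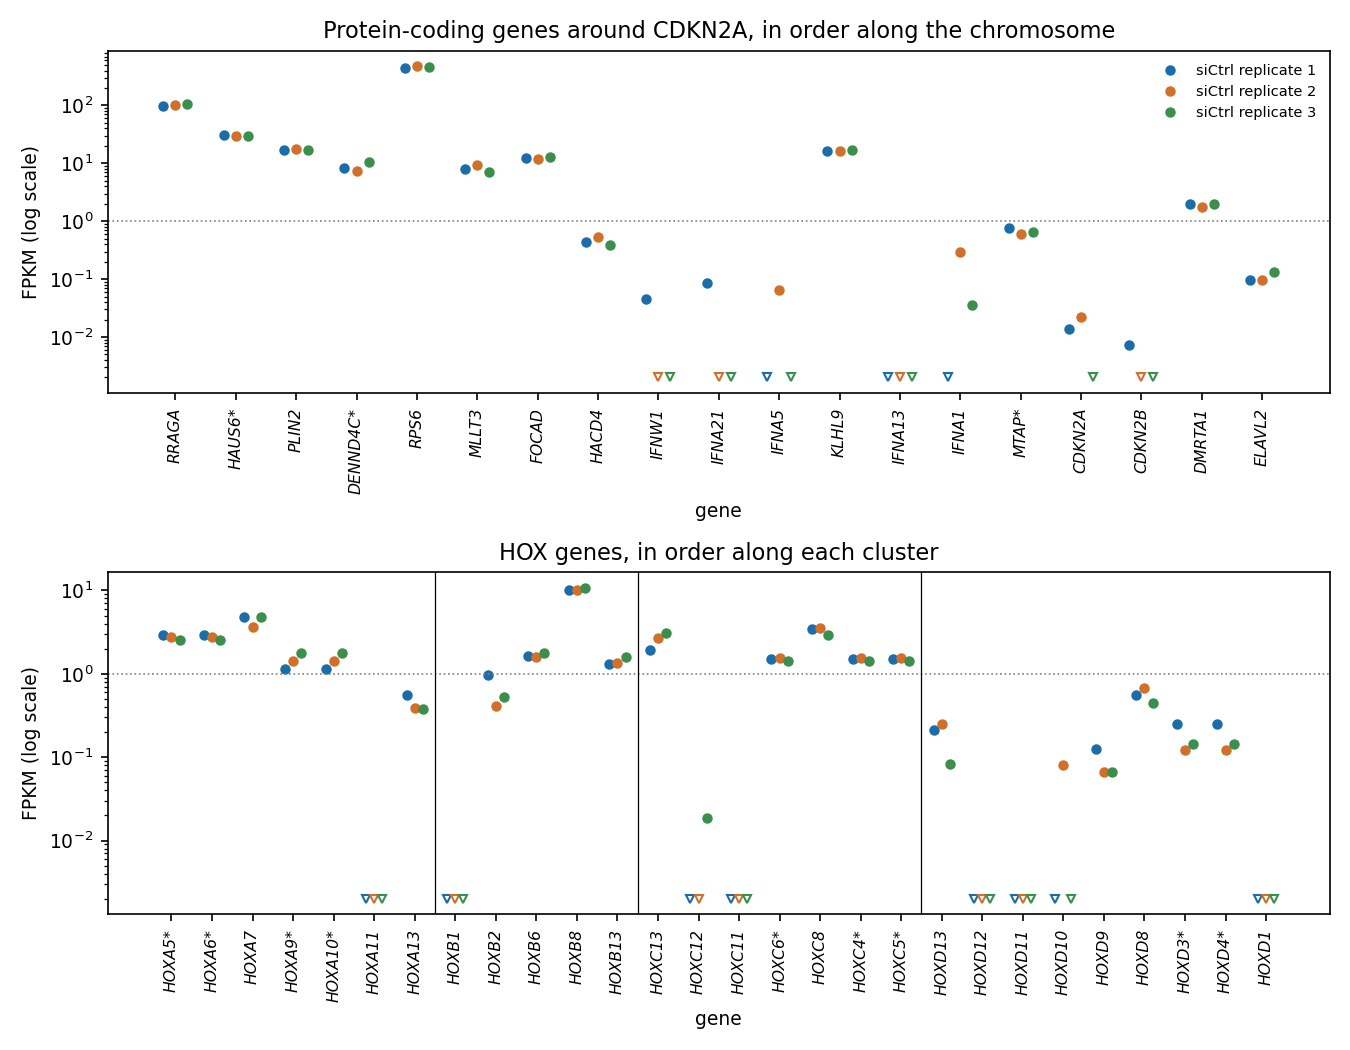
FPKM (y axis, log scale) in the 3 siCtrl libraries (1 colour each) of protein-coding genes with a row around CDKN2A (top) and of HOX genes with a row (bottom), in order along the chromosome but not spaced to scale; open triangles are values of 0, asterisks mark joined rows and the dotted line is 1 FPKM. CDKN2A and CDKN2B lie below 0.03 FPKM between KLHL9 at 16.8 FPKM and DMRTA1 at 1.92 FPKM, and no HOXD gene reaches 1 FPKM.

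Cyclin K (CCNK), the gene targeted in the other samples, measured 6.90, 7.06 and 7.10 FPKM in these controls, which places it at rank 4833. Its kinase partners CDK12 (7.91 FPKM), CDK9 (4.57 FPKM) and CDK13 (2.66 FPKM) were also detected, and beta-catenin (CTNNB1) stood at 23.2, 24.8 and 23.2 FPKM. Of 23 measured genes on a list of Cyclin K partners and Wnt genes taken from the study, 19 were detected.

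Silent families were largely silent where measured. Of 94 annotated keratin-associated protein genes 19 had a row, and none of these was detected. Of 21 taste receptor entries 1 was detected, TAS1R2, which sat on a row joined with ALDH4A1 and IFFO2 (3.43 FPKM). Of 50 listed genes typical of other tissues 24 were measured and 4 were detected. Joined rows held 3 of these, AMH (7.65 FPKM), INS (3.79 FPKM) and MBP (1.79 FPKM), which leaves KRT10 as the only single gene. Cardiac MYH6, muscle CKM and pancreatic GCG were at 0 in all libraries. Cancer-testis antigens, which are shut off in most adult tissues, were detected in 3 of 17 cases, PRAME at 19.5, 19.3 and 16.2 FPKM, the let-7 inhibitor LIN28B at 10.5, 9.79 and 10.6 FPKM and XAGE1B at 9.82, 10.1 and 9.66 FPKM. The MAGEA genes with a row lay at 0.0245 FPKM or below. Cytochrome P450 genes were detected in 7 of 40 entries (17.5%), among them CYP24A1, which breaks down vitamin D, at 12.9, 11.9 and 13.2 FPKM. It did not separate from CYP51A1, a sterol synthesis enzyme on a row joined with LRRD1, at 12.7, 11.5 and 12.4 FPKM.

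Across chromosomes, leaving out Y, the share of protein-coding genes detected ran from 54.2% on X (315 of 581) to 66.1% on chromosome 15 (289 of 437). Chromosome 19 was second lowest at 57.9% of 985.

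The 3 libraries ranked genes alike. Over the 10957 detected entries, Pearson's r of log2(FPKM + 0.1) was 0.984 to 0.985 between pairs of libraries and Spearman's rho 0.982 to 0.984. These are correlations across genes, which are not independent replicates. Between 159 and 176 entries (1.45% to 1.61%) differed over 2-fold in a pair. The median coefficient of variation (CV, SD over mean) was 5.92%, and 7835 entries (71.5%) had a CV below 10%.

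Spread fell with level. The median CV was 34.6% at 0.1 to below 1 FPKM, 7.44% at 1 to below 10 FPKM, 3.86% at 10 to below 100 FPKM and 2.44% at 100 FPKM or more. Counting error alone would give, over genes with a known exon length, 34.0%, 4.13%, 1.85% and 0.749% if each step in the values were an independent read, or 48.0%, 5.84%, 2.61% and 1.06% if steps came in pairs, since the values do not show whether a step is a read or a read pair. Below 1 FPKM the median CV lay between these bounds, and in each class above 1 FPKM it exceeded both. An SD from 3 values is itself imprecise, with a 95% interval from 0.521 to 6.28 times the estimate.

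A small set of well-counted genes was far more uneven. Of 3593 entries at 10 FPKM or more, 60 (1.67%) differed over 2-fold between libraries. In 44 of the 60 the other libraries lay within 1.2-fold of each other, so 1 library stood apart. That library was replicate 1 in 23, replicate 2 in 19 and replicate 3 in 18, counted over all 60. RAB8B, a trafficking GTPase, was most uneven at 7.35, 5.25 and 30.6 FPKM, with library 3 far above. The endoplasmic reticulum lectin MLEC measured 22.2, 6.09 and 4.64 FPKM, the taurine carrier SLC6A6 22.3, 23.3 and 84.8 FPKM and VAT1 8.002, 7.33 and 27.6 FPKM. Others among the 10 most uneven were PMP22, MAPK1IP1L, AC006064.4, YTHDF2 and CDV3, with CVs from 60.4% to 74.0%. AC006064.4 lies within GAPDH on the opposite strand. As the use of strand is not stated here, its values cannot be told apart from reads of GAPDH. The median counting CV as pairs was 2.74% over the single genes of the 60, and their median exon length was 4552 bases beside 4216 bases for all single genes at 10 FPKM or more. No library stood apart across genes, and the part of transcript assembly in these differences was not tested.

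The steadiest entries were HNRNPUL1, an RNA-binding protein, at 80.9, 80.9 and 80.8 FPKM, the DNA repair kinase PRKDC at 48.6, 48.7 and 48.7 FPKM and the ubiquitin-activating enzyme UBA1 at 56.5, 56.5 and 56.6 FPKM. Then came the joined row of PPP1CB and SPDYA, NSDHL, LSM2, STMN1, USP10, BEX3 and UBR4, all with a CV of 0.205% or less. The counting error of HNRNPUL1 as pairs was 1.08%, above its CV, and a CV this small was picked as the least of 3593, each from 3 values. Of 17 genes commonly used as references in quantitative PCR, all were detected. Among them GAPDH spread by a CV of 1.16%, ACTB (267, 255 and 271 FPKM) by 3.19% and TFRC (85.3, 74.0 and 67.3 FPKM) by 12.1%.

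**Figure D5:**
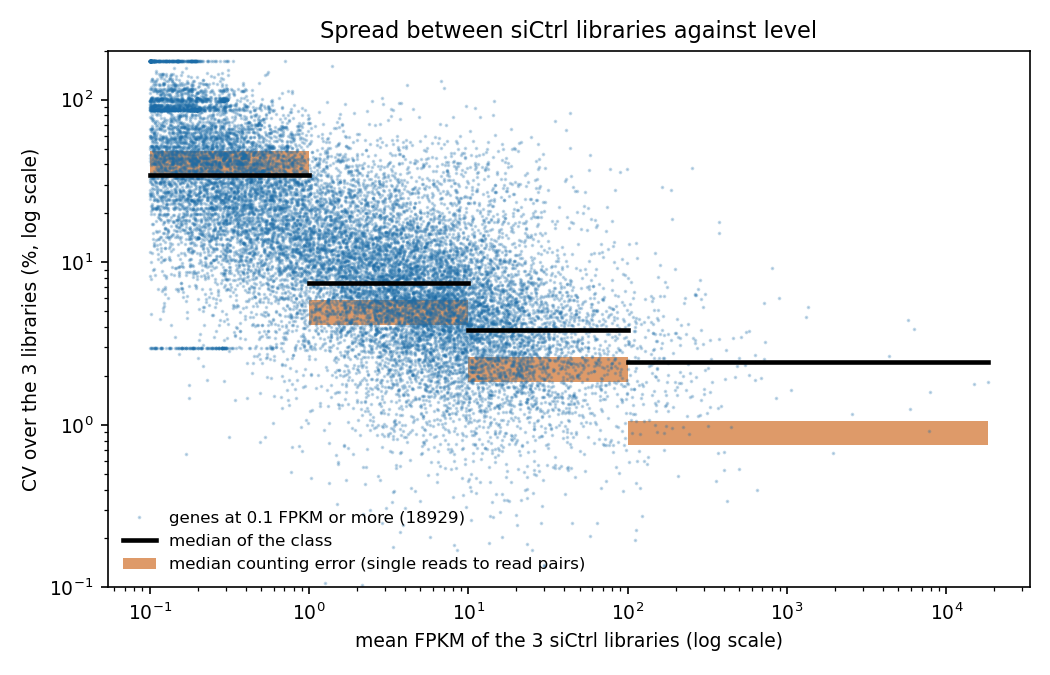
CV over the 3 siCtrl libraries (y axis, %, log scale) against mean FPKM (x axis, log scale) for entries at 0.1 FPKM or more; black bars are the median CV of each level class and orange bands the median counting error, from single reads (lower edge) to read pairs (upper edge). The median CV falls from 34.6% to 2.44%, and above 1 FPKM the black bars lie above the bands.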

How the data were processed

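The 3 siCtrl libraries, sequenced as paired reads, were used. The 6 libraries with Cyclin K siRNA were not used here. The authors deposited FPKM per row and library, normalized within each library. The submitters' processing notes name StringTie 1.3.3b, and the aligner, the filters and the use of strand are not given in the sources used here. The gene coordinates of 29260 of 29736 single genes equal those of GENCODE 29 (GRCh38), which supplied gene types and exon lengths. Multiplying by exon length and a fitted depth returned whole reads, within 0.02, for 82.0% to 84.0% of values above 0 and for 96.8% to 97.1% of values of up to 20 reads. The depth found was 31847900 to 33768000 reads, and limits drawn from it cover counting error only.

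Rows of 1 gene were summed (47 genes had more than 1 row). No test was run, as there is no contrast. Genes were described as different only where all 3 values of one exceed all 3 of the other. The gene lists and the rules were chosen with earlier results of these data known. The genes named, by rule, are the 20 highest, list and family members, the 10 largest and 10 smallest CVs at 10 FPKM or more, and neighbours of CDKN2A and in HOX clusters. Families were taken by symbol and protein-coding type, and leaders of families outside the lists, of pseudogenes and of long noncoding genes were chosen after their values were seen. List members without a row were not analysed here. Libraries differed beyond counting error (chi-square per degree of freedom 8.64 to 9.79 over pairs), so none is a copy of another. Promoters came from RefSeq, with the Ensembl identifier tried first and then the symbol or a synonym. Scripts used python 3.11.15, numpy 2.4.6, pandas 2.3.3 and scipy 1.17.1, and were tested on simulated data. Alternatives changed the row rule, joined rows, scaling, thresholds, pseudocounts and libraries. Some members of the lists are not reported here.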

Additional observations from a re-analysis of the deposited data

Results flagged for a closer look

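Rows without a reference gene, loci that carry only a StringTie name, entered no value of the report. There were 25125 of them, with 3.72% ± 0.0822 (SD, n = 3) of the summed FPKM of all rows. They are set here against a limit of 1 FPKM in each library. Of these loci 696 reached 1 FPKM in all 3 libraries, 951 had a mean of 1 FPKM or more, 68 one of 10 FPKM or more and 5 one of 100 FPKM or more. The highest had a mean of 334 FPKM, at 382, 274 and 345 FPKM in the 3 libraries. The next measured 257, 264 and 253 FPKM. Their rows give no position or gene, so their identity was not analysed here. Groups of 3 samples are too small for a search for single outlying samples.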

How the results depend on the processing

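The count of 10957 detected genes stayed within 1.5 times under every alternative but one: it was 9122 at 2 FPKM, 10084 without joined rows, 15309 after rescaling each library to TPM, 10964 to 10985 without 1 library, and 18929 at 0.1 FPKM, which moved it. The share of the 100 highest genes was 43.1% without joined rows, 42.6% with loci without a reference gene counted and 24.4% without the mitochondrial genome. The median CV was 23.8% with no filter on low values, 3.72% at 10 FPKM or more and 8.45% after rescaling to TPM, where more low genes pass the limit of 1. It was 4.55% to 4.76% without 1 library, from SDs of 2 values, and the SD of log2 values given as a CV was 5.79% with a pseudocount of 0.1 and 4.82% with 1. Detected list entries numbered 328 to 387 over the alternatives, beside 361. Of 180 values for single lists 5 moved by over 1.5 times: with a limit of 0.5 FPKM, airway markers rose to 5 and blood cell markers to 3, with a limit of 2 FPKM, HOX genes fell to 6 and neuroendocrine markers to 3, and without joined rows tissue genes fell to 1. Median-ratio factors were 0.999 to 1.00. Cutting promoter classes at other limits gave TATAAA in 7.35% and TGACNNNGC in 25% of 68 promoters at 200 FPKM or more, beside 8.33% and 15% at 100 FPKM or more. Depth limits what can be said below 1 FPKM, where a few reads decide a value and order. MYC rests on library 2. No paired analysis was possible because only 1 group of samples was described and no test was run.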

Other observations

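S100A11 (263 FPKM), S100A6 (250 FPKM) and S100A10 (137 FPKM), calcium-binding proteins, led their family, of which 9 of 15 entries (60%) were detected. S100A16 was uneven at 54.3, 118 and 95.1 FPKM. Of the serpins 8 of 20 entries (40%) were detected. SERPINH1, a collagen chaperone, measured 4.60, 9.16 and 7.48 FPKM. Of 16 KLF factors 11 were detected (68.8%), beside 3 of 12 SOX factors (25%) and 2 of 11 NKX factors (18.2%). Over all protein-coding genes the share was 62.8%, so the KLF and S100 shares lay near that background.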
